A study of Mus musculus with 60 samples.

Results

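The carcinomas compared here arose on mice that had no papilloma at 24 weeks, or only a few, and the comparison asked whether carcinomas without papillomas differed in gene expression from carcinomas of mice with few papillomas. Arrays were chosen by the papilloma count at 24 weeks in the sample labels, with any histology. They were 7 carcinomas of 6 mice with 0 papillomas and 18 carcinomas of 17 mice with 1 to 3 papillomas, together 25 of the 60 arrays and 23 of the 55 mice of the series. The other 35 carcinomas, of 32 mice with 4 or more papillomas, are given only alongside.

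All mice were FVBBX: hybrids of the Mus spretus strain SPRET/Ei and the susceptible strain FVB/N were crossed back to FVB/N, so that no pair of mice shared a genotype. Tumors were induced on back skin with the mutagen dimethyl benzanthracene (DMBA) and the phorbol ester TPA in every group, so that the mice with 1 to 3 papillomas had the same treatment. No age was given beyond the weeks of treatment. Expression was measured once per carcinoma on an Affymetrix array of the whole mouse genome and deposited as log2 values after robust multi-array averaging (RMA), which are called log2 signal below. Of the 6 mice with 0 papillomas, 5 had squamous cell carcinomas (SCC) and 1 had no histology given. Of the 17 mice with 1 to 3 papillomas, 8 had SCC, 6 had spindle carcinomas and 3 had no histology given. A p53 mutant label was carried by 3 of 6 mice with 0 papillomas and by 7 of 17 with 1 to 3.

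In the DMBA/TPA model, DMBA gives epidermal cells an activating Hras mutation and TPA then expands these cells into benign papillomas, some of which progress to SCC and further to spindle carcinoma, in which the epithelial program is lost. Keratins, desmosomal proteins and the transcription factor Trp63 mark the epithelial cells. Solid carcinomas also carry cells short of oxygen, in which hypoxia-inducible factor (HIF) turns on genes of glycolysis, acid balance and vessel growth.

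The groups differed in the labels of some mice, although no difference passed Fisher's exact test, two-sided, with Benjamini-Hochberg adjustment over 12 labels (smallest adjusted P = 0.537). Spindle histology was given for 0 of 6 mice with 0 papillomas and for 6 of 17 with 1 to 3 (exact P = 0.144), and an agouti coat for 2 of 6 and 13 of 17 (exact P = 0.131). Among SCC, poor differentiation was given for 1 of 5 mice with 0 papillomas and for 5 of 8 with 1 to 3 (exact P = 0.266). Females were 4 of 6 and 8 of 17, and the origin label F1BSF4 was carried by 4 of 6 and 7 of 17. All 6 mice with 0 papillomas at 24 weeks also had 0 at 20 weeks, whereas the 17 others had 0 to 6 at 20 weeks. For 2 of the 6 mice, mice 1 and 6, a first papilloma was nevertheless dated to weeks 10 and 22. For mouse 2 it was dated to week 28, and for the others no date was given. A like pattern was seen in the 1–3 group. There mice 1, 2 and 6 had 0 at 20 weeks but a first papilloma dated to weeks 10, 10 and 12.

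Several arrays stood apart from their labels. Xist and Y-linked signals went against the labelled sex, or gave both or neither, on 8 of the 25 arrays, 2 of which (mice 1 and 6) were among the 7 of the 0-papilloma group. The first tumor of mouse 3, with 0 papillomas, correlated with the SCC of mouse 10, with 1 to 3 papillomas and from the same cage, at 0.988 over all probe sets, but with the second tumor of its own mouse only at 0.9475. Both arrays of that pair were low in epithelial genes for an SCC label. The mean log2 signal over 29 epithelial adhesion genes was 5.93 in the first tumor of mouse 3, 9.03 in its second tumor and 5.74 in mouse 10. One further array of the 1–3 group, of mouse 12, correlated at 0.991 with an array of another mouse. The mean over 12 basal keratinocyte genes ran from 9.00 through a median of 10.64 to 11.52 in mice with 0 papillomas and from 6.61 through 10.46 to 11.10 in mice with 1 to 3, where 4 of the 6 spindle carcinomas and mouse 10 lay between 6.61 and 8.42. Krt14, a keratin of the basal layer, ran from 12.48 through a median of 13.70 to 14.17 in mice with 0 papillomas and from 9.43 through 13.80 to 13.97 in mice with 1 to 3. RNA integrity was measured as the 3′ minus 5′ signal of Gapdh, which averaged 0.0727 ± 0.12 (SD, n = 6) with 0 papillomas and 0.095 ± 0.155 (SD, n = 17) with 1 to 3 (exact permutation P = 0.755, two-sided, 100947 arrangements).

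No gene differed between carcinomas of mice with 0 and with 1 to 3 papillomas after adjustment. Of 12791 genes tested with limma, 0 (0%) had an adjusted P under 0.05, and a statistic of the SAM type called 0 as well. At an unadjusted P under 0.05 stood 630 genes (4.93%), of which 331 (2.59%) were higher and 299 (2.34%) lower in the 0-papilloma group, and the values of both groups overlapped for every gene. The SE of a difference was 0.176 for the median gene on the log2 scale, 0.103 at the 5th percentile and 0.494 at the 95th. A difference above 1 in size was seen for 136 genes, 118 of them higher with 0 papillomas and 18 lower. Correlations of whole profiles between mice had a median of 0.933 over 102 pairs between groups, 0.929 over 15 pairs within the 0-papilloma group and 0.919 over 136 pairs within the 1–3 group. Pairs of a mouse with 0 papillomas and a mouse with a spindle carcinoma had a median of 0.896 over 36 pairs. These pairs share mice, so the correlations are given as a description.

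The gene with the smallest P was Macrod2, which removes mono-ADP-ribose from proteins. Its log2 signal ran from 4.51 through a median of 4.71 to 5.30 in the 6 mice with 0 papillomas and from 3.23 through 3.97 to 4.57 in the 17 with 1 to 3. All but 1 value of the 0-papilloma group lay above every value of the 1–3 group. The difference was 0.89 (SE 0.17, limma P = 1.87e-05, adjusted P = 0.239). This probe set was dim: the array medians lay between 4.43 and 4.56, and the other 3 probe sets of Macrod2, dimmer still, differed by 0.04, 0.09 and 0.28. The tumors of mouse 3 had 5.50 and 3.95, a spread wider than the difference between groups. With cage as a block, which rests on the 2 cages that hold mice of both groups, the difference was 0.26. Sequence differences between SPRET/Ei and FVB/N under a probe can also alter hybridization, and their part was not tested.

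Among the 10 genes of smallest P that were higher with 0 papillomas, Adm, Hsd17b2 and Krt78 had the largest differences. Adm encodes adrenomedullin, a vasodilator peptide induced by hypoxia. Its log2 signal was 11.16, 11.09 and 9.97 in mice 1, 6 and 5, and 9.02, 8.51 and 7.39 in mice 2, 4 and 3, against 5.41 to 8.92 (median 7.99) in the 17 mice with 1 to 3 papillomas. So 4 of the 6 mice exceeded the highest of the 17. The mean was 9.52 ± 1.49 (SD, n = 6) with 0 papillomas and 7.74 ± 0.99 (SD, n = 17) with 1 to 3, a difference of 1.78 (SE 0.51, limma adjusted P = 0.878), and the second Adm probe set differed by 1.94. The 3 highest mice were those labelled p53 mutant, and among mice labelled 0 for p53 the difference was 0.65.

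Hsd17b2, which oxidizes estradiol and testosterone to weaker forms, had 5.14 to 9.59 (median 7.81) with 0 papillomas and 3.69 to 8.00 (median 5.29) with 1 to 3. The difference was 2.22 (SE 0.68, limma adjusted P = 0.878). Krt78, a keratin of stratified epithelium, had 5.69 to 8.25 (median 7.23) with 0 papillomas and 5.17 to 7.15 (median 5.85) with 1 to 3. The lowest value of the 0-papilloma group came from mouse 3 for both genes, inside the range of the other group. The difference in Krt78 was 1.18 (SE 0.31, limma adjusted P = 0.878).

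The other leading genes higher with 0 papillomas were Pet100 (0.62), an assembly factor of cytochrome c oxidase, Ttc32 (0.72), Coq6 (0.34), an enzyme of coenzyme Q synthesis, the thiamine transporter Slc19a2 (0.71), the interferon-induced exonuclease Isg20 (0.85) and the pyrophosphatase Dctpp1 (0.46), each with a limma adjusted P of 0.878. Their values overlapped between groups, as for every gene. Isg20 had 9.00, 9.57 and 8.92 in mice 1, 6 and 5, the 3 labelled p53 mutant. In mice 2, 4 and 3 it had 7.90, 7.94 and 7.83, inside the range of 6.58 to 8.35 of the 1–3 group. The 3 probe sets of Slc19a2 gave 0.71, 0.80 and 1.01 and the second of Pet100 gave 0.40, but the second of Ttc32, a dim one, gave −0.02.

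**Figure D1:**
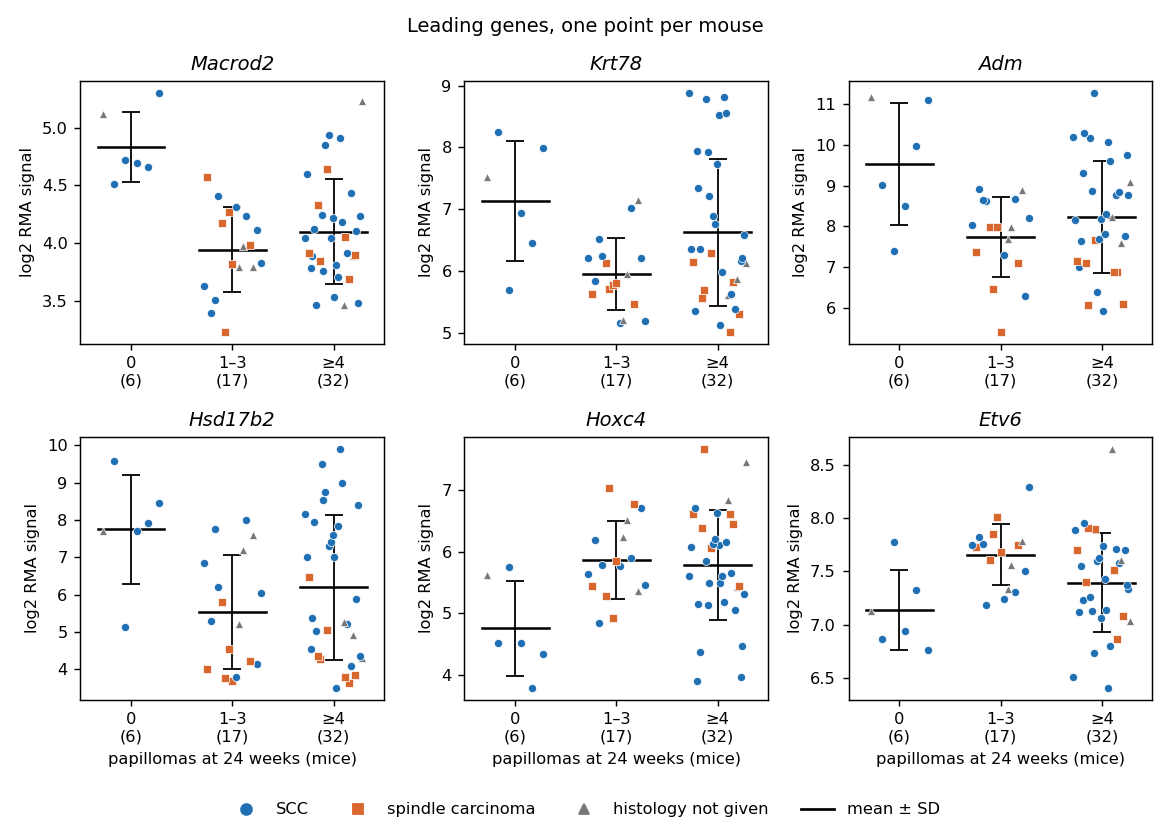
Log2 RMA signal of Macrod2, Krt78, Adm, Hsd17b2, Hoxc4 and Etv6 (vertical axes) in mice with 0, 1–3 and ≥4 papillomas at 24 weeks (horizontal axis, number of mice in brackets), with one point per mouse, shape and color for histology, and lines for mean ± SD. In each panel the 6 mice with 0 papillomas overlap the 17 with 1–3, and for Macrod2 they lie at 4.51 to 5.30, against 3.46 to 5.23 in the 32 with ≥4.

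Hoxc4, a homeobox transcription factor, led the genes lower with 0 papillomas. Its log2 signal was 5.75, 5.62, 4.53, 4.52, 4.34 and 3.80 in mice 3, 1, 2, 4, 6 and 5, against 4.84 to 7.03 (median 5.79) in the 17 mice with 1 to 3. Thus 4 mice lay below all 17. The difference was −1.10 (SE 0.30, limma adjusted P = 0.878). Etv6, a transcriptional repressor of the ETS family, had 6.76 to 7.78 (median 7.03) with 0 papillomas and 7.19 to 8.29 (median 7.73) with 1 to 3, a difference of −0.52 (SE 0.15). Of the remaining leading genes, Sash1 (−0.68), a scaffold protein, Fryl (−0.67), the histone acetyltransferase Kat6b (−0.59), Sipa1l1 (−0.53), which turns off Rap GTPases, the splicing factor Srrm2 (−0.42), Chpf2 (−0.42), of chondroitin synthesis, 5031439G07Rik (−0.37) and the deadenylase Cnot6l (−0.34) all had a limma adjusted P of 0.878. The probe sets not used mostly gave differences nearer to 0: −0.36 and 0.02 for Srrm2, −0.10 for 5031439G07Rik and −0.37, −0.11 and −0.08 for Cnot6l. They gave −0.53, −0.21 and −0.20 for Fryl, −0.40, −0.40 and −0.34 for Sipa1l1 and −0.27 for Etv6. Those of Kat6b (−0.09 and −0.03), Sash1 (−0.07) and Chpf2 (−0.05), and the last 2 of Fryl, were dim, with means of 2.57 to 3.58 over all arrays.

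Genes of the hypoxia and glycolysis list held Adm and were the group with the most genes at a small P. Of 21 measured genes, 20 were above 0 in the difference, and 9 had an unadjusted P under 0.05, all of them higher with 0 papillomas, beside 2.59% of all genes. None of the 21 passed the adjusted threshold. The median difference was 0.57, beside −0.00544 over all genes, of which 49% were above 0. The list members are known HIF targets or glycolytic enzymes and rise together in many tissues, so they are not independent of one another. In bulk tumor RNA, more cells of a kind and more RNA per cell cannot be told apart.

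Promoters are shown for the 3 genes of the list with the largest difference that have an entry in the RefSeq promoter table (GRCm38.p6, 250 bases before to 50 after a transcription start), because HIF binds the core words ACGTG and GCGTG. Capitals mark these words on either strand (CACGT and CACGC are their reverse complements, and ACGTG and CACGT overlap where they form a palindrome).
Adm, chr7:110627407-110627706, plus strand: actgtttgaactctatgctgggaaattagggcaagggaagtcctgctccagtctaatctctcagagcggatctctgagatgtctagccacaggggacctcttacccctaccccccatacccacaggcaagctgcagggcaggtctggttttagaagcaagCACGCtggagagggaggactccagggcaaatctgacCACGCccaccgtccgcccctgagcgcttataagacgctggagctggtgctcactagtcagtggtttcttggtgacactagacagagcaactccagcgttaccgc
Pfkfb3, chr2:11553880-11554179, minus strand, the first of 2 starts listed: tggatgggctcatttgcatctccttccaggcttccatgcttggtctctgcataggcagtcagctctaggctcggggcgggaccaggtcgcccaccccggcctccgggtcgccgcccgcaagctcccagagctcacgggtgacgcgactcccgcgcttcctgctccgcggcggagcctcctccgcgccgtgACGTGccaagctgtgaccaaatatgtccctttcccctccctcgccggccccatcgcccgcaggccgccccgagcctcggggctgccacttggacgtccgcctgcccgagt
Ero1a, chr14:45318523-45318822, minus strand: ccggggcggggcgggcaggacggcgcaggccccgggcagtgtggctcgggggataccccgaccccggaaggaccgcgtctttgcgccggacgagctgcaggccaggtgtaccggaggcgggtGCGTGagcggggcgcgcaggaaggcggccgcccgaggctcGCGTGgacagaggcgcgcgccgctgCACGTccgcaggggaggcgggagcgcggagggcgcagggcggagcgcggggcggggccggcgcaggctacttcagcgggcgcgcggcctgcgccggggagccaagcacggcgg
The words occurred 2 times in the Adm window, once in that of Pfkfb3 and 3 times in that of Ero1a. Of 26 promoters listed for 20 of the 21 genes, 22 (84.6%) held at least one, beside 14380 of 32851 (43.8%) of all promoters in the table. The list was made of known HIF targets and glycolytic enzymes, so a higher share could be foreseen from that choice. It is not a result about these tumors. A match is a description of the reference sequence, which is not that of SPRET/Ei or FVB/N, and not a binding site.

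Pfkfb3, which drives glycolysis by making fructose 2,6-bisphosphate, had 8.34, 8.32 and 7.88 in mice 1, 6 and 5 and 6.67, 6.66 and 6.31 in mice 2, 3 and 4, against 5.27 to 7.42 (median 6.42) with 1 to 3 papillomas. The 3 mice highest for Adm lay above the highest of the 17. The difference was 1.03 (SE 0.32, limma P = 0.00359). Ndrg1, a stress-response gene induced by hypoxia, had 11.59, 11.40, 11.22, 11.11, 10.65 and 9.82 in mice 6, 1, 5, 4, 2 and 3, against 8.79 to 11.22 (median 10.05). The difference was 0.90 (SE 0.33, limma P = 0.0129).

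The other 6 genes of the list under an unadjusted P of 0.05, and the 4 at its low end, are named after their values were seen. The 6 were Vegfa (0.78), the main growth factor of vessels, the mitophagy receptor Bnip3 (0.65), Ankrd37 (0.64), the glucose transporter Slc2a1 (0.57), and the hydroxylases P4ha2 (0.54) of collagen and Egln1 (0.51) of HIF itself. Bnip3, for example, had 10.28 to 12.08 (median 11.65) with 0 papillomas and 9.79 to 11.16 (median 10.82) with 1 to 3. At the low end of the list, Ldha differed by 0.16 (SE 0.11), Pgk1 by 0.14 (SE 0.11) and Aldoa by 0.11 (SE 0.11), all enzymes of glucose breakdown. P4ha1 was the one gene below 0, at −0.02.

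**Figure D2:**
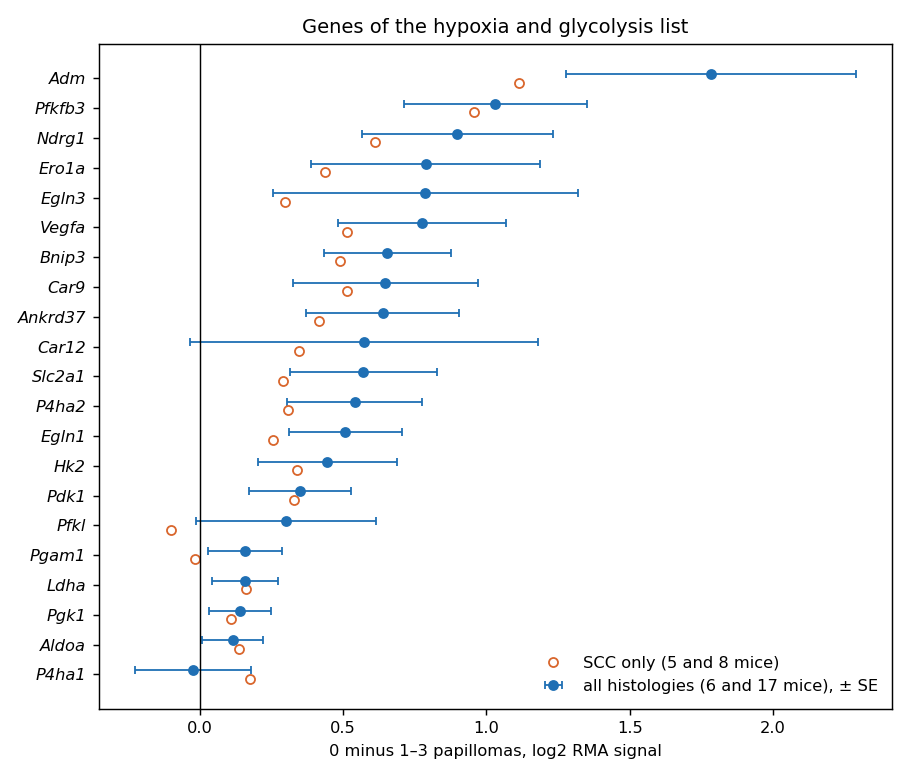
Difference in log2 RMA signal, 0 minus 1–3 papillomas (horizontal axis), for each of the 21 genes of the hypoxia and glycolysis list (rows), over all histologies with its SE (filled) and within SCC (open). 20 of 21 filled points lie right of 0, and most open points lie nearer to 0 than the filled ones.

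Averaged over the 21 genes, the log2 signal was 10.29, 10.01 and 9.89 in mice 6, 1 and 5 and 9.62, 9.41 and 8.88 in mice 2, 4 and 3, against 8.35 to 9.73 (median 9.25) in the 17 mice with 1 to 3 papillomas. The 3 highest mice were the 3 labelled p53 mutant, and 2 of them, mice 1 and 6, were those whose sex markers did not match and whose first papilloma was dated before week 24. With the p53 label as a covariate 9 genes were under an unadjusted P of 0.05 (median 0.53), beside 2.47% of all genes that were higher in that setting, and among mice labelled 0 for p53 there were 0 (median 0.17), beside 1.27%. Without the arrays whose sex markers did not match, 21 of 21 genes were above 0 and 1 was under 0.05 (median 0.39), beside 0.883% of all genes. Without mice 1 and 6, 20 were above 0 and 0 under 0.05 (median 0.28), beside 0.876%. Without mouse 6 alone there were 4 under 0.05 (median 0.40), beside 1.27% of all genes, and without mouse 3 there were 13 (median 0.76), beside 4.55%. Without the pair of arrays from one cage there were 10 (median 0.55), beside 2.76%. Cage as a block rests on the 2 cages that hold mice of both groups and was added after the data were seen. There mouse 2 was set against mouse 5 of the 1–3 group, and mouse 3 against mouse 10, which hold the closely correlated arrays. In that setting 18 of 21 were above 0 and 0 under 0.05 (median 0.13), beside 0.969%, and Adm differed by 0.25. Within origin F1BSF4, 19 were above 0 and 0 under 0.05 (median 0.24), beside 0.579%. Histology moved with the list too: in the 1–3 group the mean was 8.61 to 9.73 (median 9.42) in SCC and 8.35 to 9.37 (median 8.86) in spindle carcinoma. Leaving out spindle carcinomas, 19 genes were above 0 and 6 under 0.05 (median 0.38), beside 1.45%. That setting kept the mice without a histology label, mouse 1 among them. In labelled SCC alone, 19 of 21 were above 0 and 1 was under 0.05 (median 0.33), beside 0.837% of all genes.

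Epithelial genes lay above 0 as a group when all histologies were taken, and much less so within SCC. For 29 genes of epithelial adhesion (cadherins, desmosomal and tight junction proteins) the median difference was 0.63, with 26 above 0, but within SCC it was 0.11, with 17 above 0. For 12 basal keratinocyte genes the median was 0.84 with 12 of 12 above 0, and within SCC 0.09 with 8 of 12. None of these genes had an unadjusted P under 0.05 in either comparison. Most spindle carcinomas were low in both lists: the epithelial adhesion mean was 7.48 to 8.96 (median 8.34) with 0 papillomas, 5.74 to 9.19 (median 8.69) in SCC with 1 to 3 and 5.46 to 8.72 (median 6.56) in spindle carcinomas with 1 to 3. Mice 2 and 6 of these spindle carcinomas, at 8.01 and 8.72, lay inside the range of the 0-papilloma group. Mouse 8, at 7.10, averaged 2 unlike tumors of 4.93 and 9.27. Examples from the lists were Krt15, a keratin of basal and hair follicle stem cells, with a difference of 1.20 (SE 0.70), Lamb3, a laminin chain of the basement membrane, with 1.09 (SE 0.94), and Trp63 with 1.03 (SE 0.87). Within SCC these were 0.34, 0.27 and 0.21. Without mouse 2 Krt15 was 0.40, and without mouse 1 Lamb3 was 0.69.

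Genes of stressed and of terminally differentiating keratinocytes had medians above 0 over all histologies and within SCC. Within SCC the groups still differed in grade, with poor differentiation in 1 of 5 mice with 0 papillomas and 5 of 8 with 1 to 3. The part of grade was not tested. The stress keratinocyte list, of genes that epidermis turns on after wounding, had 13 of 13 genes above 0 with a median of 1.15, and 13 of 13 with a median of 0.68 within SCC, where 50.7% of all genes were above 0. Only 1 of them had an unadjusted P under 0.05 (0 within SCC). The cornified envelope list had 33 of 37 above 0, 7 of them under 0.05, beside 2.59% of all genes, with a median of 0.67. Within SCC 32 of 37 were above 0 and 6 under 0.05, with a median of 0.43, beside 0.837% of all genes that were higher at that threshold. None passed after adjustment. Without the arrays whose sex markers did not match, the cornified envelope count was 25 of 37 above 0 with 2 under 0.05 (median 0.30, beside 0.883% of all genes), without mouse 6 it was 25 of 37 with 3 under 0.05 (median 0.53, beside 1.27%), and without mouse 2 it was 32 of 37 with 0 under 0.05 (median 0.40, beside 1.84%). Without spindle carcinomas 31 of 37 were above 0 and 1 under 0.05 (median 0.41, beside 1.45%). The stress keratinocyte list had 13 of 13 above 0 without the sex-marker arrays (median 0.89) and without mouse 6 (median 0.91), and 11 of 13 without spindle carcinomas (median 0.49).

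Sprr3, a small proline-rich protein of mucosal cornification, ran from 6.60 through 9.48 to 13.14 in mice with 0 papillomas and from 4.34 through 7.00 to 11.73 in those with 1 to 3, and both groups spread over several units. The difference was 2.57 (SE 1.10, limma P = 0.0279). Lce3a, a late cornified envelope protein of injured epidermis, ran from 7.10 through 9.95 to 12.78 and from 4.28 through 7.72 to 10.55 in the same order of groups, with a difference of 2.46 (SE 0.95, limma P = 0.0159). Cnfn, cornifelin, differed by 2.03 (SE 0.96). In the stress list, the proline-rich proteins Sprr2i and Sprr2f differed by 1.95 (SE 1.00) and 1.54 (SE 1.15), and the interleukin Il1f9 by 1.41 (SE 0.65). Mucosal keratins had the widest spread: Krt13 ran from 4.73 through 10.48 to 13.08 with 0 papillomas and from 3.03 through 5.68 to 11.62 with 1 to 3, a difference of 2.65 (SE 1.41). Krt4 differed by 2.32 (SE 1.17) and the simple keratin Krt19 by 1.82 (SE 0.97), but without mouse 2 by 1.31 and 0.96. The adjusted P of every gene in this paragraph was 0.878.

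**Figure D3:**
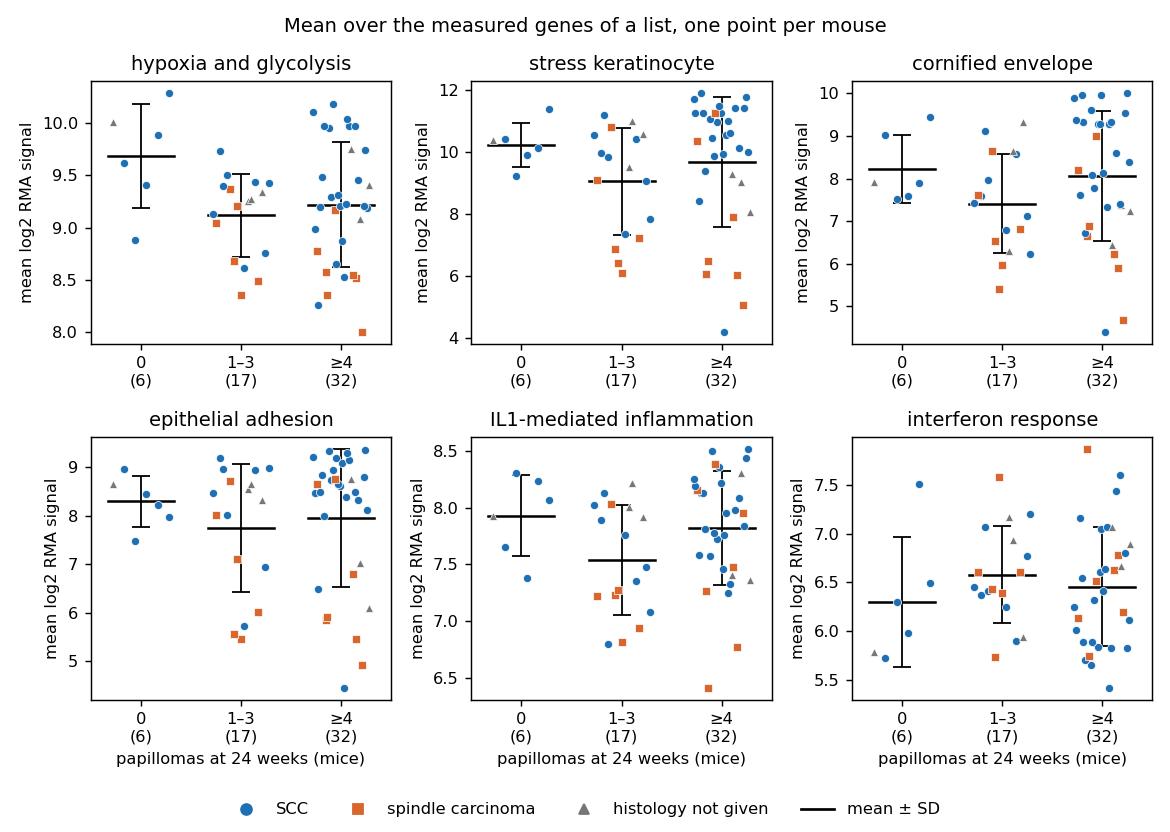
Mean log2 RMA signal over the genes of each of 6 lists (vertical axes) in mice with 0, 1–3 and ≥4 papillomas at 24 weeks (horizontal axis, number of mice in brackets), with one point per mouse, shape and color for histology, and lines for mean ± SD. In the 1–3 group the lowest epithelial adhesion, stress keratinocyte and cornified envelope means (5.46, 6.12 and 5.41) are of spindle carcinomas, in the ≥4 group the lowest (4.46, 4.21 and 4.40) are of an SCC, and the 3 highest hypoxia means of the 0 group lie above all 17 mice with 1–3.

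IL1-linked and neutrophil genes lay mostly above 0 and interferon response genes mostly below. Of 25 genes of IL1-mediated inflammation 19 were above 0 (median 0.36), 3 of them under an unadjusted P of 0.05, beside 2.59% of all genes, and within SCC 19 of 25 (median 0.35). Csf3, the neutrophil growth factor G-CSF, had 6.54 to 9.50 (median 7.84) with 0 papillomas and 4.56 to 9.17 (median 6.41) with 1 to 3, a difference of 1.39 (SE 0.57, limma P = 0.0225). Il24, a cytokine of the IL10 family, differed by 1.65 (SE 0.93) and Il1a by 1.20 (SE 0.55). Genes of the neutrophil list were above 0 for 13 of 15 (median 0.27). The single one under 0.05 was Il1f9, which is also in the stress keratinocyte list and so is not particular to neutrophils. Without spindle carcinomas 9 of 15 were above 0 (median 0.06), and without mouse 5 it was 10 of 15 (median 0.12). Interferon response genes pointed the other way, with 25 of 27 below 0 at a median of −0.23 (19 of 27 within SCC, median −0.18). Ifit2 (−0.74, SE 0.33), which binds viral RNA, was the single gene of the list under an unadjusted P of 0.05, beside Iigp1 (−0.94, SE 0.54) and Ifit3 (−0.65, SE 0.34). Isg20, interferon-induced but not in this list, was higher with 0 papillomas (0.85). Without the arrays whose sex markers did not match, 19 of 27 were below 0 (median −0.11), and without mouse 5 it was 25 of 27, 9 of them under 0.05 (median −0.46), beside 1.94% of all genes lower in that setting.

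Markers of muscle, mast cells, macrophages and fibroblasts, which bulk carcinomas also hold, were mostly below 0. Of 22 striated muscle genes 20 were below 0 (median −0.40, within SCC −0.42), led by the sarcomere genes Ttn (−1.11, SE 0.53), Myh1 (−1.01, SE 0.66) and Acta1 (−0.65, SE 0.59). The muscle mean ran from 4.91 to 6.38 with 0 papillomas and from 4.46 to 7.98 with 1 to 3. Of 12 mast cell genes 11 were below 0 (median −0.41, within SCC −0.17 with 5 above 0), among them the proteases Cma1 (−0.73, SE 0.47) and Tpsb2 (−0.58, SE 0.36) and the IgE receptor chain Fcer1a (−0.59, SE 0.49), but within origin F1BSF4 8 of 12 were above 0 (median 0.19). Of 16 macrophage and dendritic cell genes 13 were below 0 (median −0.26, within SCC 0.01), with C1qc at −0.61 (SE 0.32), Fcgr1 at −0.56 (SE 0.26) and Csf1r at −0.46 (SE 0.34). Without mouse 1 the median of that list was −0.04, and without mice 1 and 6 it was 0.05. Of 17 fibroblast genes 13 were below 0 (median −0.17, within SCC −0.15), led by Ogn (−0.91, SE 0.63), Pdgfra (−0.89, SE 0.49) and Dcn (−0.62, SE 0.35). Of 27 mesenchymal genes 16 were below 0 (median −0.08), where the repressors of epithelial genes Zeb2 (−0.66, SE 0.26) and Zeb1 (−0.69, SE 0.46) lay below 0 and Mmp9 (0.85, SE 0.56) above it. Not every list of other skin cells lay below 0. Endothelium had 10 of 14 genes above 0 (median 0.09), hair follicle 14 of 16 (median 0.34) and adipocyte 4 of 8 (median 0.01). T and NK cell genes were above 0 for 5 of 11 (median −0.10). B and plasma cell genes were above 0 for 0 of 4 (median −0.06) and melanocyte genes for 0 of 6 (median −0.16). No gene of these lists passed the adjusted threshold. Single mice carried much of some differences: without mouse 5 Acta1 was −0.21, Ogn −0.54 and Dcn −0.40, without mouse 1 C1qc was −0.32, Fcgr1 −0.35 and Csf1r −0.20, and without mouse 4 Fcer1a was −0.28. With cage as a block Ttn, Myh1 and Acta1 turned to 0.96, 1.30 and 0.78.

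Genes of RAS and p53 signaling, pathways known to be altered in these carcinomas, were described as lists too. Of 20 genes of RAS-MAPK output 12 were above 0 (median 0.07), and Ier3, an immediate early gene, was the single one under an unadjusted P of 0.05, with 10.69 to 11.93 (median 11.33) with 0 papillomas and 10.06 to 11.40 (median 10.70) with 1 to 3, a difference of 0.53 (SE 0.17). Tgfa and Hbegf, ligands of the EGF receptor, differed by 0.81 (SE 0.89) and 0.49 (SE 0.42). Of 26 p53 targets 21 were above 0 (median 0.25, within SCC 0.05), 3 of them higher and 1 lower at an unadjusted P under 0.05, beside 2.59% and 2.34% of all genes. Cdkn1a, the cell cycle inhibitor p21, had 10.02 to 10.43 (median 10.09) with 0 papillomas and 8.47 to 10.67 (median 9.67) with 1 to 3, so that the 6 mice sat within a narrow band inside the range of the 17. The difference was 0.54 (SE 0.20). Pmaip1 and Perp, of p53-induced death and adhesion, differed by 0.66 (SE 0.45) and 0.48 (SE 0.45). Mitosis and replication genes were above 0 for 13 of 30 (median −0.01), and the phorbol ester response list for 10 of 17 (median 0.11).

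Within SCC alone, 5 mice with 0 papillomas and 8 with 1 to 3 were compared, which takes spindle carcinomas out of the contrast. With limma, 0 of 12791 genes (0%) passed the adjusted threshold, with a smallest adjusted P of 1, 162 (1.27%) had an unadjusted P under 0.05, of which 107 were higher and 55 lower, and the SAM type of statistic called 0. The SE of the median gene was 0.202. Macrod2 again had the smallest P, with 4.51, 4.72, 4.69, 4.66 and 5.30 in mice 2 to 6, against 3.39 to 4.41 (median 3.97), a difference of 0.85 (SE 0.20). Hoxc4 followed, with 4.53, 5.75, 4.52, 3.80 and 4.34 in mice 2 to 6, against 4.84 to 6.70 (median 5.78), a difference of −1.20 (SE 0.32).

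The values of the groups did not overlap within SCC for 4 genes, 0.0313% of those tested: Macrod2, Aldh1l2 and Sipa1l2 were higher (0.0235%) and Scgn lower (0.00782%) in the 0-papilloma group. Sipa1l2 and Scgn are named for this after their values were seen. Aldh1l2, a mitochondrial enzyme of folate metabolism, had 7.22, 6.55, 6.59, 6.45 and 8.25 in mice 2 to 6, against 5.61 to 6.41 (median 6.15). The difference was 0.94 (SE 0.28), and 0.26 (SE 0.39) when all histologies were taken, where the 1–3 group reached 8.77. Sipa1l2, of the family that turns off Rap GTPases, had 6.24, 6.15, 5.85, 5.90 and 6.42, against 4.90 to 5.85, so that the lowest mouse with 0 papillomas and the highest with 1 to 3 were both at 5.85 after rounding. Scgn, the calcium-binding protein secretagogin, had 4.76, 4.63, 4.69, 4.64 and 4.73, against 4.78 to 5.11, close to the array medians. Mouse 3 entered as the mean of its 2 tumors, with 6.77 and 6.32 for Aldh1l2 and 5.50 and 3.95 for Macrod2. For both genes its second tumor lay inside the range of the 1–3 group. Its tumors had 6.20 and 6.11 for Sipa1l2 and 4.68 and 4.57 for Scgn, outside that range.

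**Figure D4:**
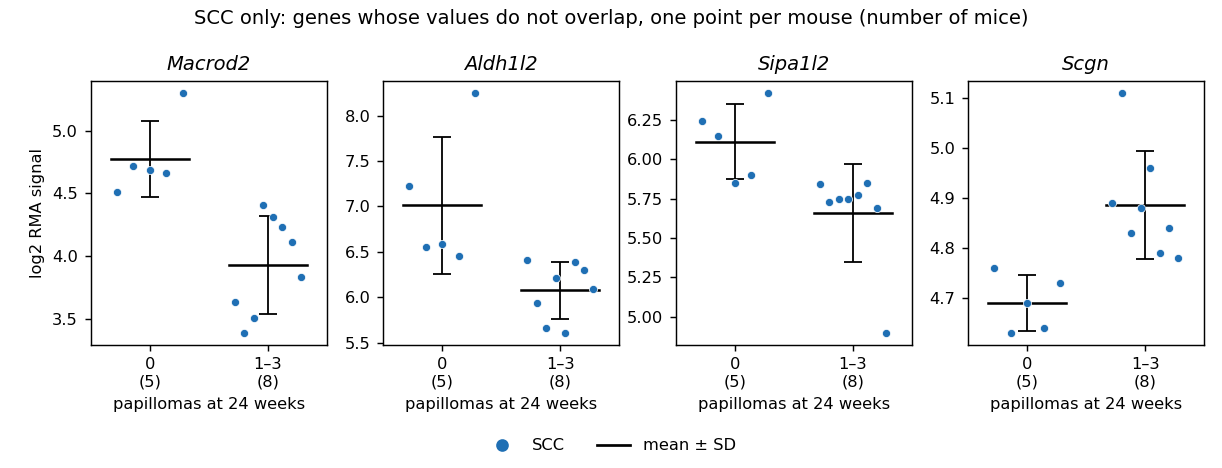
Log2 RMA signal (vertical axes) of the 4 genes whose values did not overlap within SCC, in 5 mice with 0 and 8 mice with 1–3 papillomas at 24 weeks (horizontal axis), one point per mouse, with mean ± SD. The lowest of the 5 mice for Sipa1l2 is nearly level with the highest of the 8, at 5.85. The point of mouse 3 with 0 papillomas is the mean of 2 tumors.

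Genes leading within SCC were in part those of the full comparison: Ttc32 (0.70), Slc19a2 (0.78) and Coq6 (0.35) were higher, and Srrm2 (−0.46) and 5031439G07Rik (−0.39) lower. The others that were higher were Zfp653 (0.52), the lectin Cd209g (0.92), the homeobox gene Dlx1 (0.51), the chemokine receptor-like Ccrl2 (0.96) and Prrg1 (0.46). The others that were lower were Adgrg6 (−1.33), an adhesion G-protein coupled receptor, Mybpc2 (−1.10), of fast muscle fibers, Farp2 (−0.80), Zfp839 (−0.68), the chromatin remodeler Smarca2 (−0.57), Ptges3l (−0.52) and the transcription factor Tfcp2 (−0.51). Every adjusted P was 1. Over all histologies these others lay nearer to 0, in the order given at 0.22, 0.60, 0.03, 0.79 and 0.24. Those lower lay at −0.98, −0.85, −0.68, −0.50, −0.19, −0.34 and −0.36. Within SCC the probe sets not used gave 0.20 and 0.10 for Prrg1, −0.20 for Farp2 and −0.20 for Smarca2. They gave −0.37 (dim) for Adgrg6, and 0.04 (dim) and −0.24 for Ptges3l. Dlx1 and Cd209g were dim themselves, with means of 4.07 and 4.39 over all arrays. For Adgrg6 mouse 2 had 3.23 and mouse 3 had 6.31, against 5.03 to 7.08 (median 6.20) in the 8 mice with 1 to 3.

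**Figure D5:**
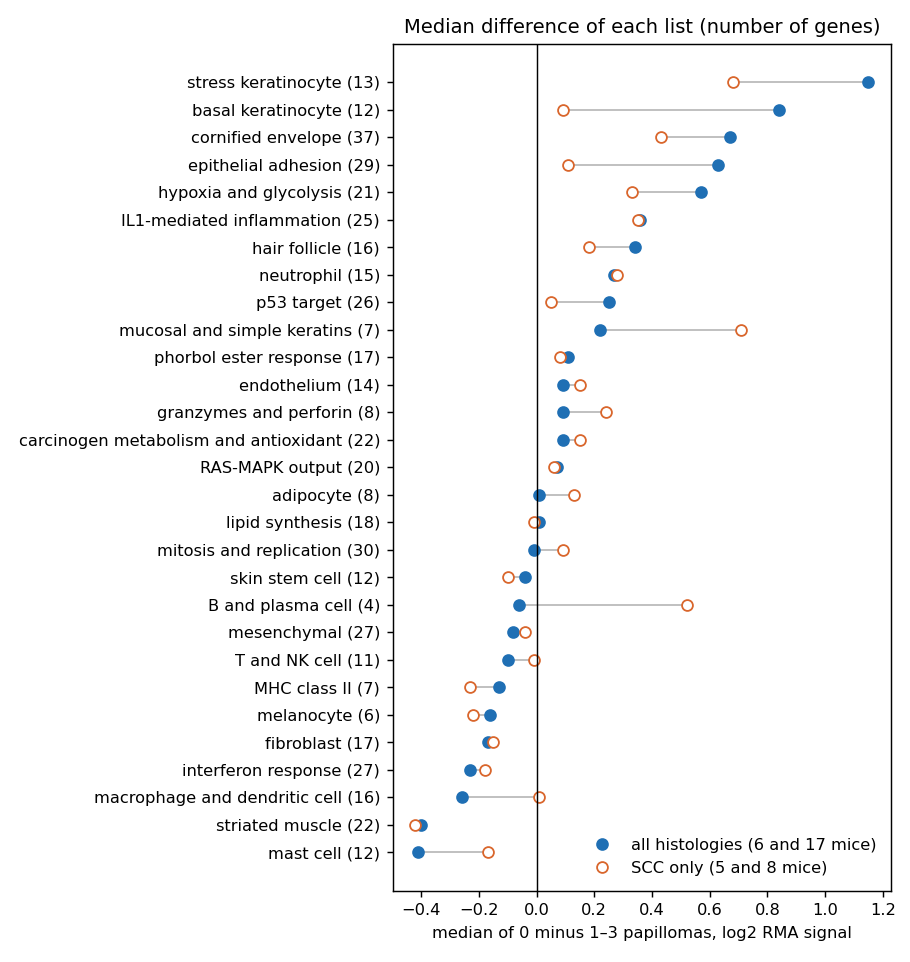
Median over each of 29 gene lists of the difference in log2 RMA signal, 0 minus 1–3 papillomas (horizontal axis), over all histologies (filled) and within SCC (open), with lists in rows and their number of genes in brackets. The basal keratinocyte and epithelial adhesion lists move from 0.84 and 0.63 to 0.09 and 0.11 within SCC, while stress keratinocyte and cornified envelope keep 0.68 and 0.43.

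Beside mice with 4 or more papillomas, the 6 mice with 0 papillomas again showed no gene with a limma adjusted P under 0.05 among 12791 (508 genes, 3.97%, at an unadjusted P under 0.05, 2.2% higher and 1.77% lower; smallest adjusted P = 0.446). This contrast shares its 0-papilloma mice with the one above, so its values are set beside it and not counted as a second result. The median difference of the hypoxia list was 0.50 against the ≥4 group and 0.57 against the 1–3 group. Medians of the stress keratinocyte and cornified envelope lists were 0.52 and 0.18 against the ≥4 group, and 1.15 and 0.67 against the 1–3 group. For IL1-mediated inflammation they were 0.01 and 0.36. These are medians over genes of differences between group means. Over mice, the median list mean with 0 and with ≥4 papillomas was 10.25 and 10.40 for stress keratinocyte and 7.91 and 8.17 for cornified envelope, the other way. It was 9.75 and 9.21 for hypoxia and 8.00 and 7.89 for IL1-mediated inflammation. Spindle carcinomas were given for 7 of the 32 mice with ≥4. For Macrod2 the median log2 signal was 4.71, 3.97 and 4.04 in mice with 0, 1 to 3 and 4 or more papillomas, for Adm 9.49, 7.99 and 8.16, for Krt78 7.23, 5.85 and 6.26 and for Hoxc4 4.53, 5.79 and 5.75. For Sprr3 it was 9.48, 7.00 and 8.96, where the 1–3 group was the lowest of the 3.

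Genes that the study discussed did not pass either. The study linked Gzme, Spry2, Il18 and Map2k4 to susceptibility in papillomas, not carcinomas, of resistant against susceptible mice. There Gzme and Spry2 were higher with resistance, and Il18 and Map2k4 with susceptibility. Carcinomas of mice with 0 and 1 to 3 papillomas are another tissue and another contrast, so the values here do not test that result. Il18, an interleukin of the IL1 family, had 6.99 to 9.28 (median 7.61) with 0 papillomas and 7.47 to 9.93 (median 8.61) with 1 to 3, a difference of −0.66 (SE 0.34, limma adjusted P = 0.878). Within SCC it was −0.87. Spry2, an inhibitor of RAS signaling, differed by 0.35 (SE 0.22), and by 0.38 in the dimmer probe set that the study listed. The granzyme gene Gzme differed by 1.06 (SE 0.87), but by 0.26 within SCC, −0.07 without spindle carcinomas and 0.50 without mouse 4. The cyclin gene Ccnd1 differed by −0.32 (SE 0.26) and the kinase gene Map2k4 by 0.08 (SE 0.13). Lgr5, a marker of hair follicle stem cells, differed by −0.02 (SE 0.30), the receptor gene Gprc5d by 0.27 (SE 0.17), and the hair follicle keratins Krt71 and Krt25 by 0.25 (SE 0.54) and 0.53 (SE 0.81).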

How the data were processed

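Members and gene lists were chosen with earlier results of these data known. Per the labels and the study's methods, expression of 60 carcinomas was measured on an Affymetrix array of the whole mouse genome. The deposited values are log2 signals after RMA, which the authors normalized over all arrays, so that signals are comparable between arrays but not between probe sets; they are limited in precision by the number of mice, and RMA compresses differences of dim probe sets. No scan date was used here.

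Of 45101 probe sets, 34958 carried a single gene symbol, 932 several and 9211 none in the platform annotation used, and 34754 matched RefSeq. One probe set per gene, the one with the highest mean, gave 18194 genes. Of these, 12791 exceeded the median of their array in 8 or more of the 60 arrays. Tumors of a mouse were averaged first. Groups were compared with limma 3.58.1 (R 4.3.3; lmFit and eBayes, two-sided) without covariates, with Benjamini-Hochberg adjustment over all 12791 genes at 0.05. The script was tested on simulated data. P-values measure the spread between mice. Genes named were the 10 of smallest P in each direction of both comparisons, up to 3 of a list with the largest difference, and genes the study discussed. Alternatives covered filters, probe set choice, scaling, the SAM type of statistic with 100 permutations, covariates and left-out arrays. Leaving out the pair of arrays from one cage, and cage as a block, were chosen after seeing the data. Python 3.11.15, pandas 2.3.3 and matplotlib 3.10.9 were used for joins and plots.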

Additional observations from a re-analysis of the deposited data

Results flagged for a closer look

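In 105 groups of 4 to 10 mice, of a named gene or of a list mean, 6 had a value farther from the rest than Dixon's 95% limit allows, and chance flags about 1 in 20 groups. Of the 6 mice with 0 papillomas, mouse 3 was lowest for Pet100 at 9.23 (next 9.81, highest 10.07). Mouse 4 had the lowest mean of the mitosis and replication list at 7.45 (next 8.34, highest 8.72). Mouse 5 had the highest mean of the neutrophil list at 9.03 (next 8.28, lowest 7.96) and the lowest mean of the striated muscle list at 4.91 (next 6.00, highest 6.38). Among SCC, mouse 6 was highest for Macrod2 at 5.30 of the 5 mice with 0 papillomas (next 4.72, lowest 4.51), and mouse 17 was lowest for Sipa1l2 at 4.90 of the 8 mice with 1 to 3 (next 5.69, highest 5.85).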

How the results depend on the processing

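No gene passed the adjusted threshold under any of 31 alternatives over all histologies or 25 within SCC, the SAM type of statistic included. Over all histologies, 136 (within origin F1BSF4) to 1509 (every probe set tested) had an unadjusted P under 0.05, and the smallest adjusted P ran from 0.211 to 1; within SCC 70 to 567 had one, and it ran from 0.905 to 1. The count was 158 without arrays of unmatched sex markers, and 181 without the mice of the 0-papilloma group whose first papilloma was dated before week 24. It was 304 without spindle carcinomas, 1267 without mouse 3, 301 without mouse 6 and 786 without the pair of arrays from one cage. Lgr5 changed sign, to 0.06 with mouse as a random effect, 0.08 with sex and 0.01 with coat as a covariate, 0.26 without the sex-marker arrays, 0.05 without arrays above 0.99, 0.17 without the 3 arrays of largest Gapdh difference, 0.14 without the week-24 mice, 0.47 among mice with p53 label 0 and 0.11 without the cage pair, and ran from −0.18 to 0.09 when each mouse was left out. Within F1BSF4 the differences were −0.05 for Gprc5d and Lamb3, −0.34 for Krt71, −0.58 for Krt25, −0.01 for Trp63, −0.09 for Pmaip1, −0.06 for Perp and −0.39 for Tgfa. Without the sex-marker arrays they were −0.04 for Gprc5d, −0.88 for Krt71 and −1.41 for Krt25, without the week-24 mice −0.01, −0.59 and −1.03, and with p53 label 0 −0.10, −0.77 and −1.07. Krt71 was −0.05 with coat as a covariate. Leaving out each mouse, Krt71 ran from −0.12 to 0.49 and Krt25 from −0.11 to 0.89. With histology as a covariate Gzme was −0.05 and Perp −0.02, and without spindle carcinomas Gzme was −0.07, Perp −0.04 and Tgfa −0.10. The cause was not tested. Mouse as a random effect could not be fitted within SCC, where 1 mouse had more than one tumor. No paired analysis was possible because replicate numbers only name tumors in accession order, but the cage label ties mice of both groups in 2 of 18 cages. 1 of these cages holds the closely correlated arrays of mouse 3 and mouse 10. Cage was therefore added after the data were seen. As a random block (consensus correlation 0.0632) it left 596 genes under an unadjusted P of 0.05, and as a block 176, with Macrod2 at 0.26, Pet100 at 0.00, Isg20 at −0.03, Etv6 at 0.11, Lgr5 at 0.48, Gprc5d at −0.08, Krt71 at −0.24, Krt25 at −0.11, Pdgfra at 0.05, Dcn at 0.12, Iigp1 at 0.48, Cma1 at 0.24, Fcer1a at 0.28, Tpsb2 at 0.02, Ttn at 0.96, Myh1 at 1.30, Acta1 at 0.78, Bnip3 at −0.42 and Egln1 at −0.24. Within SCC 194 and 488 genes were under 0.05 in these fits. With 6 mice against 17, a difference had a median SE of 0.176.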
